A study of Rattus norvegicus with 6 samples.

Results

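The vascular endothelial growth factor (VEGF) ligands and receptors are described here across the cells of rat lungs after bleomycin (BLM) or saline. The members were chosen by name, with earlier results of these data known. They are the ligands Vegfa, Vegfb, Vegfc and Vegfd, the receptor tyrosine kinases Flt1, Kdr and Flt4, and the co-receptors Nrp1 and Nrp2. These are 9 of the 16383 genes with values, and all 25547 cells of the series were used. Sprague Dawley rats received 1 dose of BLM at 5 mg/kg through an oral tracheal tube (the BLM-treated group, 3 rats), and the control group (3 rats) received saline in the same volume. Lungs were taken at day 28, pieces were digested with collagenase and dispase, and single cells were captured in microwells with barcoded beads for whole transcriptome sequencing. The rats were 8 to 10 weeks old. Each library came from a small piece of the lung of 1 rat, so that BLM-treated lungs hold whatever mix of scarred and spared tissue that piece had.

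VEGF ligands are secreted dimers that act on receptor tyrosine kinases of endothelial cells (ECs). Vegfa binds Kdr (VEGFR2), which carries most of its signal for EC survival, permeability and sprouting, and Flt1 (VEGFR1), which binds the ligand tightly but signals weakly and also occurs as a soluble trap. Of the receptor kinases, Vegfb binds Flt1 alone, whereas Vegfc and Vegfd act mainly through Flt4 (VEGFR3), the receptor of lymphatic endothelium. Nrp1 and Nrp2 have no kinase of their own and present VEGFs to the receptors. They also bind class 3 semaphorins. In the healthy lung, alveolar epithelium makes Vegfa for the capillaries it lies on.

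The libraries held between 3860028 and 16598959 unique molecular identifiers (UMIs), with a median of 1066 to 1840 UMIs per cell in the 6 rats. Clustering gave 23 cell classes. The named ones carried their marker lists, among them the lung's own AT1, AT2, club and ciliated cells, and each name below means cells like that type. Clusters whose leading genes did not settle a name are called by their top gene (Gjb2-led, Fcnb-led and Ccl21-led). The 9 members were kept out of the genes used for clustering. ECs made up 1673 of 15009 cells in BLM-treated lungs and 218 of 10538 cells in control lungs, and the control lungs contributed only 27, 41 and 150 ECs. Values in control ECs therefore rest on few cells, mainly those of control replicate 3, and results without that rat are given where they change. The levels below are UMIs of the gene per 1000000 UMIs (CPM) summed over the cells of 1 rat and class. Gene lengths were not used, so that only levels of the same gene are compared.

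The ligands and receptors were spread over different cells. Vegfa was at its highest level in AT1 cells, with 1839, 1759 and 1770.3 CPM in BLM-treated lungs, against 1935, 4467 and 3466 CPM in control lungs, although the BLM values rest on 2, 4 and 6 cells. The next highest classes in both groups were ECs and fibroblasts. By mean level, AT2 cells lay above neutrophils in BLM-treated lungs and below them in control lungs. Tuft cells, with 7 cells in BLM-treated lungs and 59 in control lungs, are not ranked here. In AT2 cells, which make surfactant, Vegfa was 756, 487 and 573 CPM in BLM-treated lungs, against 716, 513 and 600.4 CPM in control lungs, and the groups overlapped. Flt1 was an EC gene, Flt4 was highest in lymphatic ECs and in the Ccl21-led cluster that holds them, and Vegfd was mainly found in fibroblasts. Kdr was unusual in that its highest class was not endothelial. Plasmacytoid dendritic cells, which are sensors of viral nucleic acid, had 1325, 860.5 and 1501 CPM in BLM-treated lungs, against 1886, 1439 and 1526 CPM in control lungs, with no detectable difference between the groups (log2 fold change -0.35 ± 0.20 (SE), edgeR adjusted p = 0.634). The endothelial marker list summed to 275 to 440 CPM over the BLM rats and 281 to 452 CPM over the control rats in these cells, with 7 of 13 genes at 0 in each group (Egfl7, Calcrl, Erg, Ecscr and Mmrn2 in both), against 13406 to 14993 CPM in ECs of BLM-treated lungs. Kdr was also among the 10 leading genes of that cluster by fold.

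**Figure D1:**
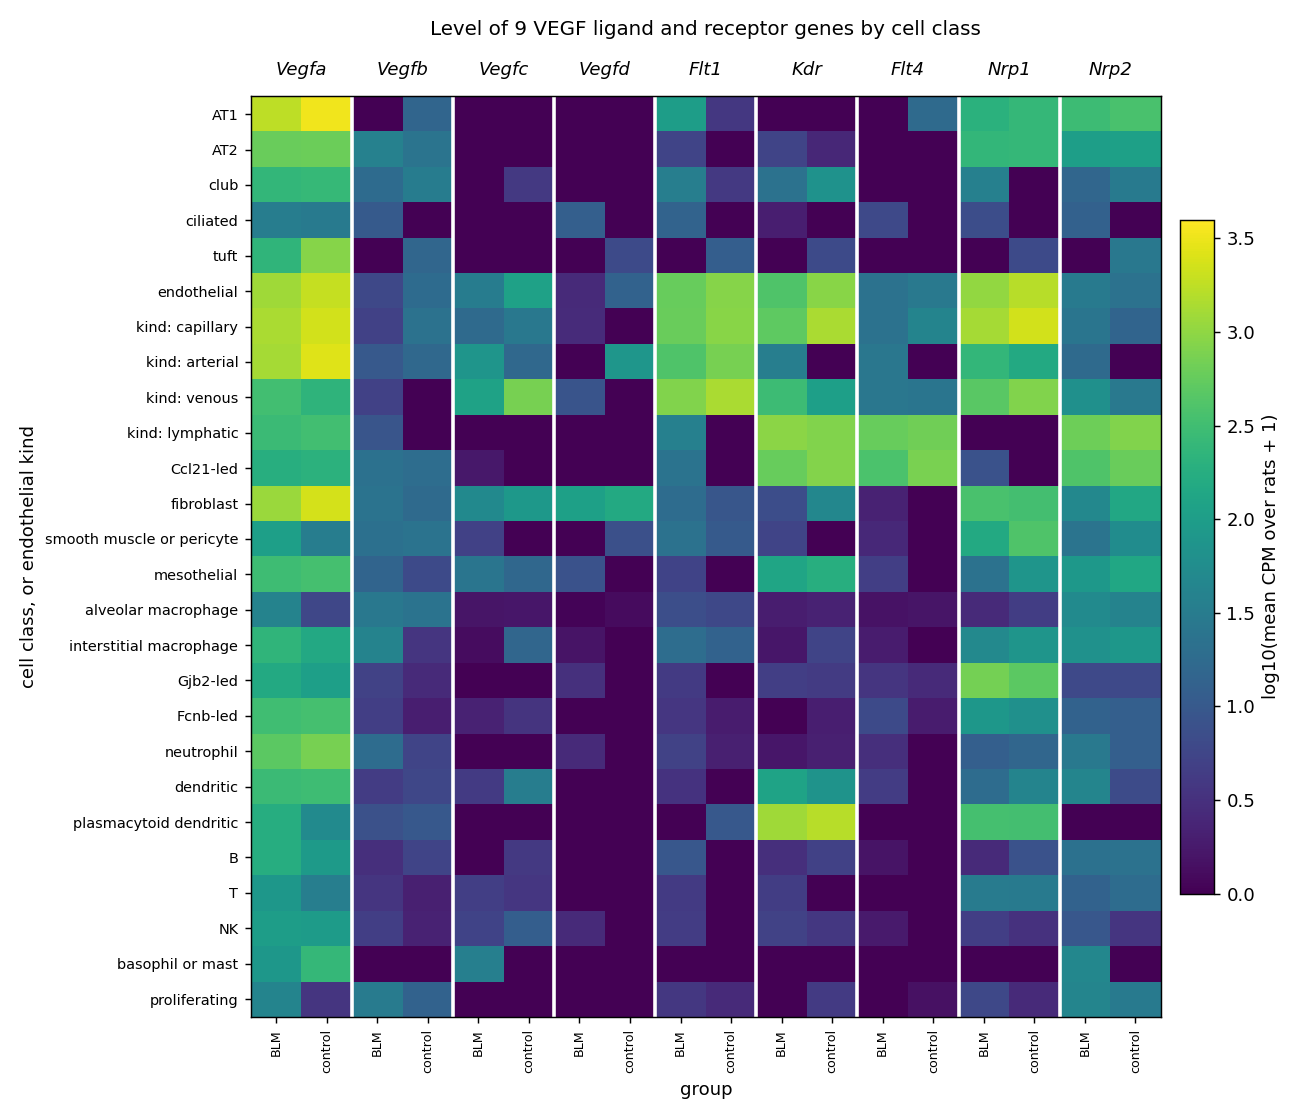
Level of each gene by cell class (rows, all classes but 1) in BLM-treated and control lungs (columns), as log10 of the mean CPM over rats plus 1. Rows that begin with "kind" are subdivisions of the endothelial cells and the Ccl21-led cluster. Vegfa is present in nearly every class, whereas Vegfd, Flt4 and Flt1 are bright in 1 or a few rows.

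The cells that held the UMIs of a gene also differed between the groups. In BLM-treated lungs, fibroblasts held a mean of 32.0% (range over rats 20.2 to 43.2%) and ECs 31.9% (21.1 to 44.2%) of all Vegfa UMIs. In control lungs, AT2 cells held 37.8% (24.8 to 50.8%) and ECs 11.6% (5.23 to 23.8%). ECs held 62.6% of Kdr UMIs in BLM-treated lungs (52.7 to 67.9%) and 26.1% in control lungs (8.10 to 47.9%), where plasmacytoid dendritic cells held 57.7% (32.6 to 76.1%). Nrp1 UMIs were in ECs (53.9%) and fibroblasts (22.6%) in BLM-treated lungs, and in AT2 cells (33.4%), the Gjb2-led cluster (23.9%) and ECs (20.7%) in control lungs. ECs held the largest mean part of Flt1 UMIs in both groups, at 84.0% (75.6 to 88.3%) in BLM-treated lungs and 69.7% (40.9 to 88.5%) in control lungs. Alveolar macrophages held 3.37% (1.28 to 4.89%) in BLM-treated lungs and 23.7% (7.69 to 47.7%) in control lungs, and in control replicate 1 their part was above the 40.9% of ECs. These shares follow how many cells of each class were captured as well as the level in each, and no test was made of them.

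**Figure D2:**
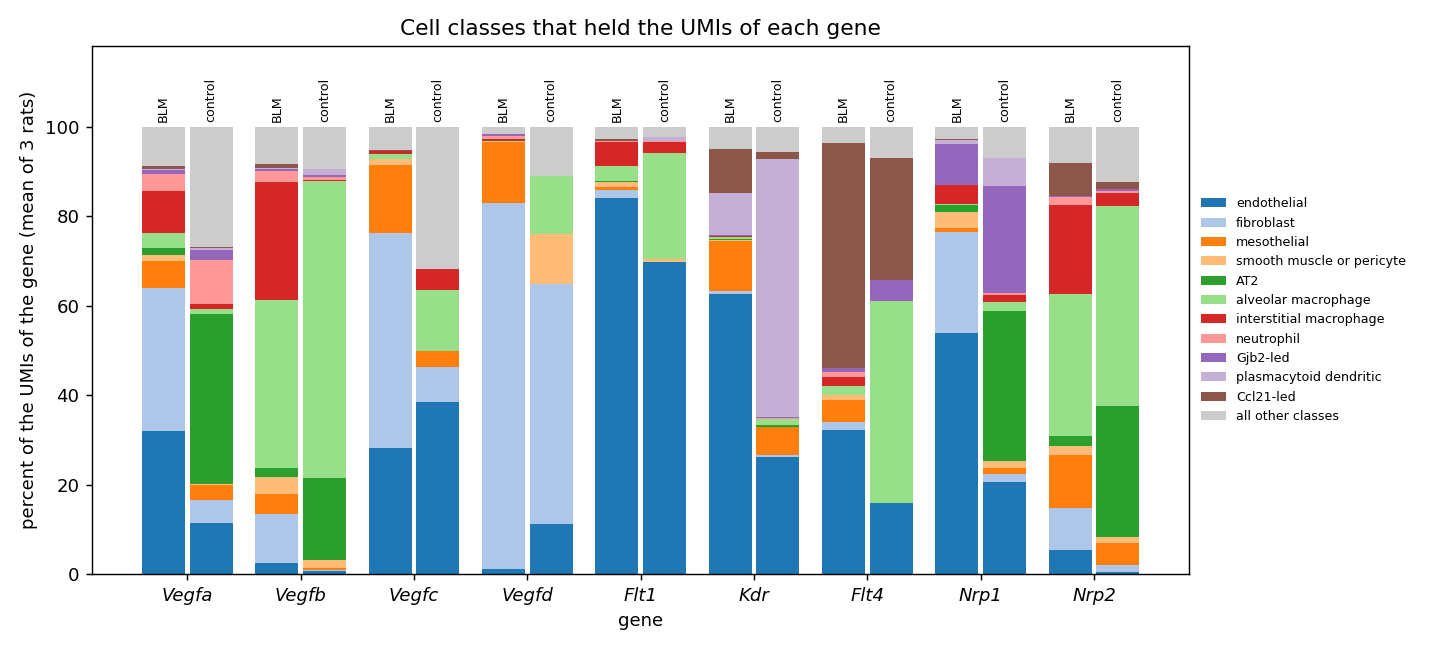
Share of each gene's UMIs held by each cell class, as the mean of 3 rats, for BLM-treated lungs (left bar of each pair) and control lungs (right bar). The largest parts of the Vegfa bars are fibroblasts and ECs in BLM-treated lungs and AT2 cells in control lungs.

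Summed over all cells of a rat, 5 of the 9 members were higher in BLM-treated lungs and none was lower. These were the ligands Vegfa, Vegfc and Vegfd and the receptors Flt1 and Nrp1. In the same fit, 11.1% of 13346 genes were higher and 6.33% were lower. Fewer cells of a type and less RNA per cell cannot be told apart in such sums. Vegfa was 343, 365 and 347 CPM in BLM-treated lungs, against 164, 201 and 214 CPM in control lungs, and each BLM value was above every control value (log2 fold change 0.82 ± 0.15 (SE), edgeR adjusted p = 0.0109, n = 3 each). Vegfd was 10.6, 22.95 and 7.76 CPM in BLM-treated lungs, against 0.396, 0.777 and 1.48 CPM in control lungs. The groups did not overlap here either (log2 fold change 3.78 ± 0.60 (SE), edgeR adjusted p = 0.00638), and the control values rest on 3, 3 and 18 UMIs. Flt1 was 50.6, 45.9 and 89.01 CPM in BLM-treated lungs, against 5.81, 20.2 and 23.00 CPM in control lungs (log2 fold change 1.85 ± 0.46 (SE), edgeR adjusted p = 0.0312), without overlap.

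Nrp1 was 148, 156 and 211 CPM in BLM-treated lungs, against 76.1, 117 and 77.2 CPM in control lungs (log2 fold change 0.90 ± 0.18 (SE), edgeR adjusted p = 0.0155), and Vegfc was 7.67, 7.77 and 15.3 CPM in BLM-treated lungs, against 2.24, 4.92 and 4.52 CPM in control lungs (log2 fold change 1.34 ± 0.38 (SE), edgeR adjusted p = 0.0486). In both genes every BLM rat was above every control rat. Flt4 was 5.94, 6.57 and 6.50 CPM in BLM-treated lungs, against 0.264, 3.89 and 1.15 CPM in control lungs, which also did not overlap but missed the threshold in edgeR (log2 fold change 2.04 ± 0.63 (SE), edgeR adjusted p = 0.0612) and passed it in DESeq2 (adjusted p = 0.0133). Kdr was 55.9, 40.97 and 82.2 CPM in BLM-treated lungs, against 37.5, 69.2 and 38.3 CPM in control lungs, and the groups overlapped (log2 fold change 0.28 ± 0.28 (SE), edgeR adjusted p = 0.547), as they did for Vegfb (log2 fold change 0.16 ± 0.24 (SE), edgeR adjusted p = 0.696) and Nrp2 (log2 fold change 0.03 ± 0.11 (SE), edgeR adjusted p = 0.869). The count of 0 lower genes was the same in DESeq2, and 6 of the 9 members had an unadjusted p under 0.05 in edgeR, all of them higher. No share over all genes is given for the unadjusted threshold. Of the 5 calls only that of Vegfd held when each rat was left out in turn. Vegfc was lost in every such fit, Flt1 without BLM replicate 1, BLM replicate 3 or control replicate 2, Nrp1 without control replicate 1 or 3, and Vegfa without BLM replicate 2 or control replicate 1. Their adjusted p then reached at most 0.131, 0.0677, 0.0592 and 0.056 in that order.

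**Figure D3:**
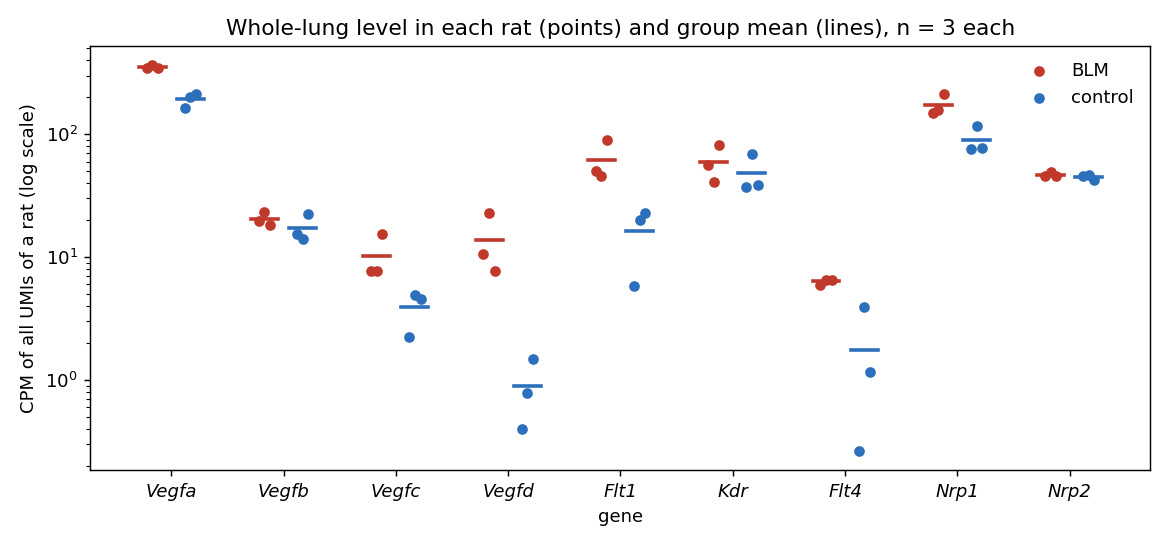
CPM over all cells of each rat (points, log scale) with the group mean (line) for the 9 genes, n = 3 each. The groups are apart for Vegfa, Vegfc, Vegfd, Flt1, Flt4 and Nrp1, and they overlap for Vegfb, Kdr and Nrp2.

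Within cell classes few members passed the test. Of 47 tests of a member in 17 classes, 2 were higher and 4 were lower in BLM-treated lungs. Over all genes tested in these classes, 2.67% were higher and 2.15% lower. In edgeR, 14 of the 47 tests had an unadjusted p under 0.05, and DESeq2 also gave 2 higher and 4 lower. The share of all genes under that unadjusted threshold is not given, so that the 14 are not read as an excess. The higher ones were ligands in macrophages, namely Vegfa in alveolar macrophages and Vegfb in interstitial macrophages. Most cells of the interstitial class in BLM-treated lungs were in an Spp1-led cluster described below, and the control rats held a single Vegfb UMI in that class. The lower ones were Vegfa in neutrophils, Nrp1 in mesothelial cells, and both Kdr and Vegfc in ECs.

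**Figure D4:**
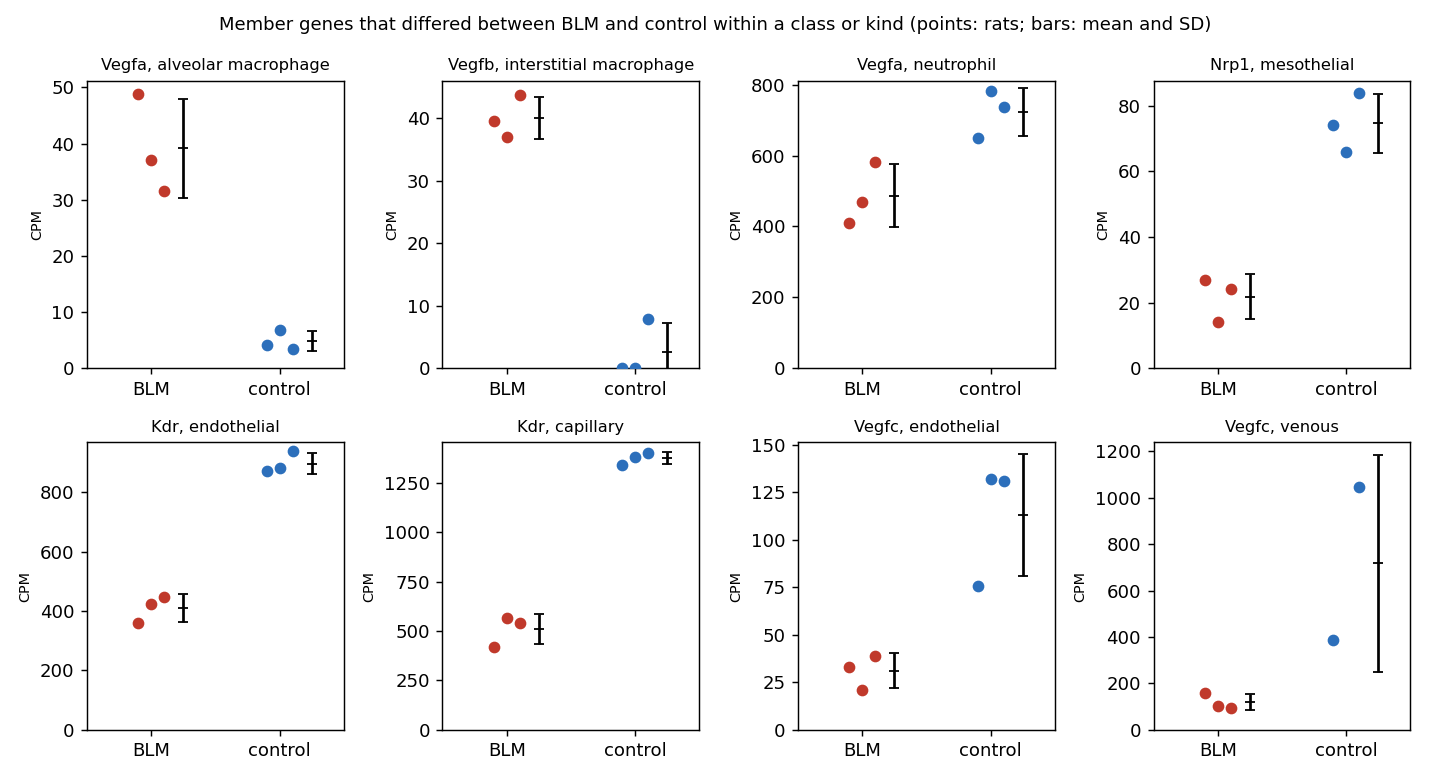
CPM of the genes that passed the test within a class or EC kind, with 1 point per rat and the mean and SD beside the points (n = 3 each, except 2 control rats for venous ECs). The panels were chosen because the test was passed, and BLM-treated and control rats are apart in each of the 8. The EC panels include cells of the capillary and venous panels.

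Vegfa was the only member that could be tested in all 17 classes, and it passed in 2 of them. In alveolar macrophages it was 48.9, 37.1 and 31.6 CPM in BLM-treated lungs, against 4.19, 6.79 and 3.49 CPM in control lungs. The lowest BLM rat was above the highest control rat by a wide margin (log2 fold change 3.16 ± 0.27 (SE), edgeR adjusted p = 9.03e-05), in a fit in which 6.63% of 9259 genes were higher. The call held in each fit that left out a rat and in each other alternative run. The alveolar macrophages formed 3 clusters that the groups shared unequally. In the Slc39a2-led cluster alone, Vegfa was 49.6, 31.97 and 21.1 CPM in BLM-treated lungs, against 4.12, 5.09 and 2.61 CPM in control lungs (log2 fold change 3.20, edgeR adjusted p = 0.000238). In the Olr1-led cluster, where BLM-treated lungs gave most cells, it was higher too (log2 fold change 3.03, edgeR adjusted p = 0.00198), although control replicates 1 and 3 had only 1 and 3 Vegfa UMIs there. The Tchh-led cluster, with 1652 of the 3780 control cells, had 41.6, 36.03 and 9.06 CPM in BLM-treated lungs, against 4.55, 8.07 and 7.07 CPM in control lungs. It was too sparse for the test, with 3, 5 and 1 Vegfa UMIs in BLM rats and 4, 7 and 7 in control rats.

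These were low levels. The share of alveolar macrophages with a Vegfa UMI was 8.19% in BLM-treated lungs and 1.22% in control lungs at a median of 4188.5 and 2987 UMIs per cell, and 1.47% (95% Wilson interval 1.04 to 2.06%) and 0.192% (0.0928 to 0.395%) after each cell was thinned to 500 UMIs. No class lacked Vegfa. In T cells, with medians of 838 and 985 UMIs, the share was 5.60% in BLM-treated lungs and 3.24% in control lungs, and 3.31% and 1.21% after thinning. After thinning, the shares in alveolar macrophages lay below those in T cells in both groups. Before thinning, the share in BLM-treated lungs lay above that of T cells, at more UMIs per cell. Whether the Vegfa UMIs of alveolar macrophages came from these cells or from free RNA was not tested. They are not read here as expression by the macrophages. Vegfa did not pass the threshold in B cells (212, 185 and 125 CPM in BLM-treated lungs, against 81.2, 108 and 81.1 CPM in control lungs, edgeR adjusted p = 0.0831), in T cells (73.8, 72.9 and 93.6 CPM in BLM-treated lungs, against 57.4, 18.6 and 25.01 CPM in control lungs, edgeR adjusted p = 0.129) and in plasmacytoid dendritic cells (edgeR adjusted p = 0.179). In NK cells the groups overlapped at 96.5, 129 and 75.5 CPM in BLM-treated lungs, against 121, 55.00 and 106 CPM in control lungs. Other cell types' markers in the alveolar macrophages differed between the groups as well: the AT1 list summed to 213 to 313 CPM in BLM rats and 21.9 to 47.6 CPM in control rats, with all 8 genes detected in both, and the fibroblast list to 104 to 172 and 64.3 to 98.5 CPM, with 1 of 12 genes at 0 in each group (Col1a2 in BLM rats, Mfap4 in control rats). The AT2 list ran the other way, at 150 to 194 CPM in BLM rats and 277 to 803 CPM in control rats, with none of 8 genes at 0. Their part in the Vegfa result was not tested.

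In neutrophils, Vegfa was 409.6, 469 and 583 CPM in BLM-treated lungs, against 650.3, 783 and 736 CPM in control lungs, without overlap (log2 fold change -0.72 ± 0.22 (SE), edgeR adjusted p = 0.0348; 8.79% of 3321 genes were lower). This call was lost in 5 of the 6 fits that left out a rat, with adjusted p up to 0.138, all except the one without BLM replicate 3. Epithelial markers in these cells moved with it. The AT2 list summed to 400 to 527 CPM in BLM rats and 996 to 1788 CPM in control rats with none of 8 genes at 0, and the AT1 list to 688 to 904 and 1073 to 1260 CPM, with 1 of 8 genes at 0 in BLM rats (Akap5) and 3 in control rats (Aqp5, Akap5 and Clic5). Their part was not tested. In fibroblasts, the other large store of Vegfa, the level was 1493, 1003 and 909 CPM in BLM-treated lungs, against 1260.2, 1356 and 3272 CPM in control lungs. Control replicate 1 had 3 fibroblasts and did not enter the fit (log2 fold change -0.83 ± 0.39 (SE), edgeR adjusted p = 0.337), and without control replicate 3, which leaves 1 control rat in the fit, the estimate was 0.15. ECs themselves held Vegfa at 1274, 1170.2 and 1245 CPM in BLM-treated lungs, against 2465, 646 and 2612 CPM in control lungs, with control replicate 2 at the low end and no call (log2 fold change -0.50 ± 0.34 (SE), edgeR adjusted p = 0.489). Without control replicate 2 the log2 fold change was -0.86 (edgeR adjusted p = 0.0357), and without control replicate 3 it was 0.12.

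Most UMIs of Vegfb, which binds Flt1 alone among the receptor kinases, were in macrophages in both groups. Alveolar macrophages held 37.4% of its UMIs in BLM-treated lungs and 66.3% in control lungs, and their level was 26.7, 31.4 and 21.8 CPM in BLM-treated lungs, against 21.4, 17.7 and 28.9 CPM in control lungs, with overlap (log2 fold change 0.16 ± 0.23 (SE), edgeR adjusted p = 0.735). In interstitial macrophages, by contrast, Vegfb was 39.5, 36.97 and 43.6 CPM in BLM-treated lungs, against 0, 0 and 7.87 CPM in control lungs (log2 fold change 3.79 ± 0.84 (SE), edgeR adjusted p = 0.00563; 8.37% of 6078 genes were higher). The control rats had a single Vegfb UMI in 193 cells against 195 UMIs in 1466 cells of BLM rats. The ratio of the pooled levels was 13.1, with an exact 95% interval of 2.33 to 521 that covers counting error only. Vegfb passed the filter on low counts through the BLM rats alone, and it dropped out of the fits without any 1 of them. In the fits that left out a control rat, its log2 fold change ran from 3.15 to 8.39. The groups differed in which cells made up this class. Of the 982 cells of the Spp1-led cluster only 12 came from control lungs, and they had no Vegfb UMI. In BLM rats the Spp1-led cluster held 39, 107 and 32 Vegfb UMIs, and the C1qc-led cluster 2, 11 and 4. The study names Spp1 and Arg1, both among the leading genes of the Spp1-led cluster, as high in 1 of its alveolar macrophage clusters. In the C1qc-led cluster, which both groups shared, Vegfb was 14.2, 23.3 and 15.4 CPM in BLM-treated lungs, against 0, 0 and 9.55 CPM in control lungs, and the ratio there was 6.01 with an interval of 0.941 to 251, which includes 1. The interstitial macrophages of BLM rats also had more of the alveolar macrophage list (4968 to 5473 CPM, against 2264 to 2969 CPM in control rats, with 2 of 10 genes at 0 there) and of the AT1 list (719 to 915 CPM with 1 of 8 genes at 0, against 150 to 291 CPM with 3 at 0). The part of these in the Vegfb result was not tested.

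UMIs of Vegfc, the main lymphatic growth factor, were in fibroblasts, ECs and mesothelial cells of BLM-treated lungs, and ECs held the largest part in control lungs (28.2% in ECs of BLM-treated lungs and 38.5% in ECs of control lungs). Within ECs it was 33.2, 21.1 and 38.9 CPM in BLM-treated lungs, against 75.8, 132 and 131 CPM in control lungs, and the groups did not overlap (log2 fold change -1.92 ± 0.35 (SE), edgeR adjusted p = 0.00288; 2.72% of 6183 genes were lower). The control values rest on 2, 9 and 31 UMIs, and without control replicate 3 the log2 fold change was -1.64 with an adjusted p of 0.163 in edgeR. Among the EC kinds, Vegfc was highest in venous cells, with 160.0, 102 and 94.4 CPM in BLM-treated lungs, against 387 and 1047 CPM in control replicates 2 and 3 (log2 fold change -2.50 ± 0.52 (SE), edgeR adjusted p = 0.00307; 1.03% of 1647 genes were lower). Control replicate 1 had 3 venous cells and was not entered, and control replicates 2 and 3 had 10 each. Venous cells were 7.45, 7.10 and 5.24% of the cells in EC kinds in BLM rats, against 11.1, 22.7 and 6.90% in control rats. The EC and venous results thus share cells and are not independent, and the part of this mix in the EC result was not tested. Without control replicate 3 the control arm is 1 rat, assumed to vary like the BLM rats, and the log2 fold change was -1.54 (edgeR adjusted p = 0.363). The venous AT2 marker sum was 16.0 to 23.6 CPM in BLM rats and 533 to 551 CPM in control rats (5 and 3 of 8 genes at 0), and its part was not tested. In fibroblasts Vegfc was 41.2, 32.96 and 73.9 CPM in BLM-treated lungs, against 0, 50.2 and 116 CPM in control lungs, with overlap (log2 fold change -0.70 ± 0.65 (SE), edgeR adjusted p = 0.691). Vegfc was thus higher in whole-lung sums and lower within ECs of the same libraries.

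Vegfd, the other Flt4 ligand, was close to being a fibroblast gene. Fibroblasts held 81.8% of its UMIs in BLM-treated lungs and 53.7% in control lungs. Its level within fibroblasts was 135, 139 and 54.7 CPM in BLM-treated lungs, against 140.0, 25.1 and 282 CPM in control lungs, with 82, 364 and 37 UMIs in BLM rats and 1, 1 and 17 UMIs in control rats. The groups overlapped (log2 fold change -0.42 ± 0.68 (SE), edgeR adjusted p = 0.841), with control replicate 1 not entered. Without control replicate 3, only control replicate 2 with its single Vegfd UMI stood against the BLM rats, and the estimate was 2.55. Fibroblasts numbered 1067 cells in BLM-treated lungs and 47 in control lungs. Mesothelial cells of BLM replicate 3 had 28 Vegfd UMIs, and those of the other 5 rats had none.

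Kdr was lower in ECs of BLM-treated lungs. In all ECs it was 359, 423 and 448 CPM in BLM-treated lungs, against 872, 881 and 939 CPM in control lungs, with tight groups that were far apart (log2 fold change -1.02 ± 0.20 (SE), edgeR adjusted p = 0.00456). Without control replicate 3 the call was just lost (log2 fold change -0.83, edgeR adjusted p = 0.0532). Leaving out the EC subclusters that carried macrophage, haemoglobin, B cell or smooth muscle genes, an alternative added after seeing the data, gave -1.07 (edgeR adjusted p = 0.00163). In all ECs the AT2 list summed to 34.7 to 80.6 CPM in BLM rats (1 of 8 genes at 0) and 470 to 531 CPM in control rats (none at 0), and its part in the Kdr and Vegfc results was not tested. Of 12 tests of a member in the 3 EC kinds that could be tested, 2 were lower (Kdr in capillary and Vegfc in venous cells) and 0 were higher, over a background of 3.23% lower and 4.92% higher, and 6 had an unadjusted p under 0.05 in edgeR. DESeq2 also gave 2 lower and 0 higher. The background shares are for the adjusted threshold, and none is given for the unadjusted one. In venous ECs the estimate for Kdr had the other sign and did not pass (log2 fold change 1.56 ± 0.71 (SE), edgeR adjusted p = 0.282). Kdr was not tested in arterial ECs.

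In capillary ECs, Kdr was 421, 567 and 539 CPM in BLM-treated lungs, against 1342, 1383 and 1401 CPM in control lungs (log2 fold change -1.28 ± 0.22 (SE), edgeR adjusted p = 1.79e-05; 4.42% of 4821 genes were lower). Every BLM rat was below every control rat, and the call held without each rat and under every other alternative. The share of capillary ECs with a Kdr UMI was 43.3% in BLM-treated lungs and 56.8% in control lungs at medians of 1199 and 1077 UMIs, and 22.4% (95% Wilson interval 20.1 to 24.9%) and 40.6% (32.7 to 48.9%) after thinning to 500 UMIs. In B cells, which should lack Kdr, it was 0.183% in BLM-treated lungs and 0.213% in control lungs at medians of 598 and 573.5 UMIs, and 0.0865% and 0.17% after thinning. The endothelial marker list also summed to less in capillary ECs of BLM rats (13731 to 15599 CPM, against 16568 to 21042 CPM in control rats, with none of 13 genes at 0), as did the AT2 list (29.7 to 62.7 CPM, against 233 to 612 CPM) and the lymphatic list (219 to 293 CPM, against 1466 to 2451 CPM, with 5 of 7 genes at 0 in control rats). Their part was not tested.

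The capillary ECs of the groups lay in different subclusters. Of 155 control capillary cells, 123 were in subcluster 7, led by Gpx2, Cyp1a1 and Tmem100, which had 4 cells from BLM-treated lungs, and those of BLM-treated lungs were in subclusters 0 to 4. Pooled over rats, Kdr was 1472 CPM (95% Poisson interval 1302 to 1657) in control cells of subcluster 7, and 395 to 595 CPM in BLM cells of subclusters 0 to 4. In subcluster 0, the only other one with more than 2 control cells, it was 513 CPM (430 to 607) in 372 BLM cells and 516 CPM (223 to 1016) in 27 control cells, which had 8 Kdr UMIs. Kdr marks aerocytes, the wide alveolar capillary cells that cover the gas exchange surface, in mice. Cells with at least 3 UMIs of 9 other aerocyte markers had 561 CPM (478 to 654) in BLM-treated lungs and 2355 CPM (2026 to 2722) in control lungs, in 120 and 40 cells. Cells with 0 to 2 such UMIs had 516 CPM (482 to 551) in BLM-treated lungs and 813 CPM (665 to 985) in control lungs. Kdr was thus higher in the aerocyte-marked cells of control lungs and about level between both sets in BLM-treated lungs. The pooled control values rest mainly on control replicate 3, which gave 115 capillary cells, against 17 and 23. By rat, aerocyte-marked cells had 355, 681 and 590 CPM in BLM-treated lungs, against 4926, 2581 and 2284 CPM in control lungs. The other cells had 433, 552 and 529 CPM in BLM-treated lungs, against 1068, 1056 and 684 CPM in control lungs. These intervals cover counting error only, the split depends on the depth of a cell, and no test between the groups was made on it.

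**Figure D5:**
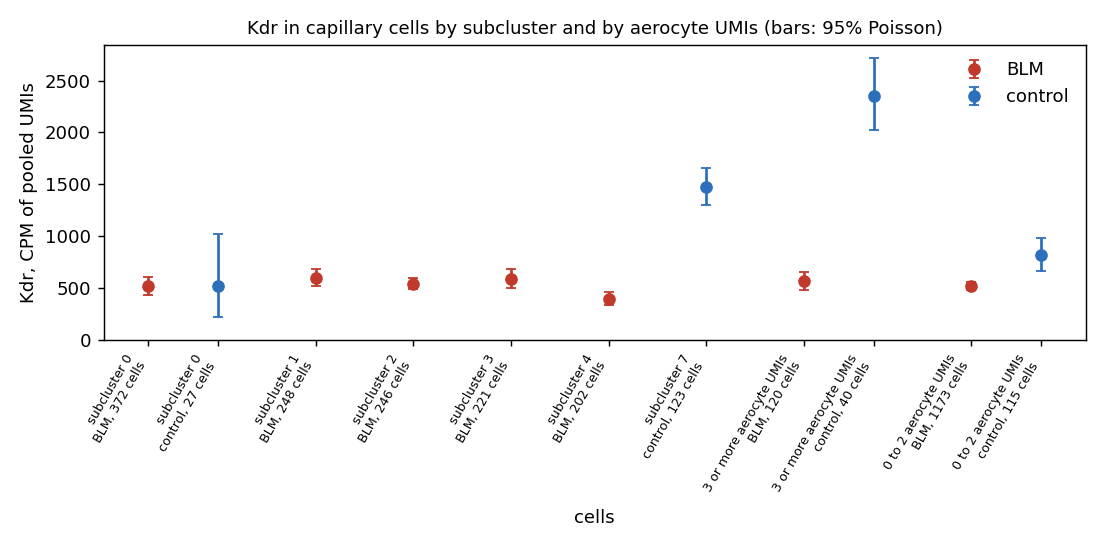
Kdr in capillary ECs, pooled over rats, by subcluster and by the number of aerocyte marker UMIs in a cell, with the cell number under each point and 95% Poisson intervals. BLM-treated cells lie between 395 and 595 CPM in every subcluster and marker set, whereas control cells reach 1472 CPM in subcluster 7 and 2355 CPM with 3 or more aerocyte UMIs.

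The 250 bases before the start of the RefSeq transcript are shown for Kdr and Flt1, the receptors of Vegfa, as the stretch where EC genes often carry ETS family motifs. They were taken from RefSeq's rat build GRCr8, on the plus strand at chr14:32571813-32572062 for Kdr and chr12:12333180-12333429 for Flt1, and capitals mark each GGAA or its reverse TTCC.
Kdr: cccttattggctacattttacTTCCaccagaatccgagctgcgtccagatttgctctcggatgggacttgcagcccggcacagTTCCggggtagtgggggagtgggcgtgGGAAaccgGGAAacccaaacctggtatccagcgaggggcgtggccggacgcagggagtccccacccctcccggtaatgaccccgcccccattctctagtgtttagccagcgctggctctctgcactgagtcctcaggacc
Flt1: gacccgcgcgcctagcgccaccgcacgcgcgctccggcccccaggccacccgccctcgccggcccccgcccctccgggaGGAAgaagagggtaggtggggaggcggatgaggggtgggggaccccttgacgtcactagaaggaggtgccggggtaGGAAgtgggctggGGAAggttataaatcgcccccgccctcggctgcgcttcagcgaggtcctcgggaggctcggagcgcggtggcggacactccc
The Kdr stretch held 4 ETS cores and the Flt1 stretch 3. Such a core was in 93.2% of 33469 stretches of this length, so that its presence sets neither gene apart. The core of the hypoxia response element (ACGTG or GCGTG, either strand, able to share a base with the ETS core) was found in 2 places before Kdr and in 1 before each of Flt1, Vegfb, Nrp1 and Nrp2, and in 36.7% of all stretches. It was not in the windows of Vegfa, Vegfc, Vegfd or Flt4. A match is a description of these letters only.

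Flt1 was highest in ECs but, unlike Kdr, did not pass the test there. Its level was 545, 528 and 638 CPM in BLM-treated lungs, against 683, 1013 and 939 CPM in control lungs, and the groups did not overlap (log2 fold change -0.55 ± 0.21 (SE), edgeR adjusted p = 0.163). In capillary ECs it was 567, 618 and 636 CPM in BLM-treated lungs, against 817, 719 and 1166 CPM in control lungs (log2 fold change -0.53 ± 0.23 (SE), edgeR adjusted p = 0.158), and without control replicate 3 the estimate was 0.06. In arterial ECs the groups overlapped (edgeR adjusted p = 0.638). In venous ECs Flt1 was 1072, 693 and 732 CPM in BLM-treated lungs, against 1598 and 1157 CPM in control replicates 2 and 3, which did not overlap and did not pass (edgeR adjusted p = 0.402). Whether Kdr and Flt1 differed in their response to BLM was not tested. In the whole lung Flt1 was higher in BLM-treated lungs, and ECs were 11.1% of their cells and 2.07% of the cells of control lungs.

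Flt4 was rare, with 245 UMIs in all, and no class or kind could be tested for it. Lymphatic ECs had 700.4, 527 and 531 CPM in BLM-treated lungs, against 1955 and 653 CPM in control replicates 2 and 3, which had 4 and 6 such cells, while control replicate 1 had none. Other ECs stood far below, with capillary cells at 16.01, 21.9 and 26.7 CPM in BLM-treated lungs, against 0, 111 and 13.03 CPM in control lungs. Lymphatic ECs also held Kdr, at 1004, 769 and 1061 CPM in BLM-treated lungs, against 2199 and 817 CPM in the same 2 control rats.

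Among ECs, Nrp1 and Nrp2 were divided between vessel types. The largest mean part of Nrp2 UMIs was outside vessels, in alveolar macrophages (31.7% in BLM-treated and 44.7% in control lungs). ECs held 5.45% and 0.478% of them, and the Ccl21-led cluster 7.38% and 1.44%. Nrp1 was highest in capillary ECs, with 1175, 1334 and 1363 CPM in BLM-treated lungs, against 3034, 2157 and 1583 CPM in control lungs (log2 fold change -0.53 ± 0.23 (SE), edgeR adjusted p = 0.15), and no Nrp1 UMI was found in lymphatic ECs, whereas Nrp2 was at 607, 556 and 743 CPM in lymphatic ECs of BLM rats and at 18.3, 27.7 and 26.7 CPM in their capillary ECs. In all ECs, Nrp1 was 963, 1044 and 1104 CPM in BLM-treated lungs, against 2199, 1468 and 1184 CPM in control lungs (log2 fold change -0.43 ± 0.21 (SE), edgeR adjusted p = 0.298). The groups did not overlap there, and the test was not passed. Outside ECs, the Gjb2-led cluster, whose leading genes Adgre4 and Spn are known from monocytes, had Nrp1 at 711, 628 and 772 CPM in BLM-treated lungs, against 427, 554 and 488 CPM in control lungs (log2 fold change 0.52 ± 0.17 (SE), edgeR adjusted p = 0.197), again without overlap and without a call. Fibroblasts of BLM rats held it at 400.5, 339.5 and 368 CPM, against 327 and 349 CPM in control replicates 2 and 3.

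The only call for a co-receptor within a class or EC kind was in mesothelial cells, the lining of the pleura. Nrp1 was 26.97, 14.1 and 24.3 CPM in BLM-treated lungs, against 74.1, 66.02 and 84.1 CPM in control lungs there (log2 fold change -1.85 ± 0.42 (SE), edgeR adjusted p = 0.042; 1.03% of 3678 genes were lower). The groups were apart, but the counts were small, with 6, 9 and 32 UMIs in BLM rats and 13, 5 and 8 UMIs in control rats, and the call was lost in each of the 6 fits that left out a rat, with adjusted p between 0.0939 and 0.197. The fibroblast marker list also differed in these cells, at 7910 to 21014 CPM in BLM rats and 22208 to 41427 CPM in control rats, and its part was not tested. Nrp2 passed in none of the 7 classes tested with edgeR or DESeq2. Its unadjusted p in edgeR was under 0.05 in 3 of them, without a share over all genes to set this against, and the directions differed. In alveolar macrophages it was 56.7, 51.3 and 46.9 CPM in BLM-treated lungs, against 43.3, 38.04 and 36.8 CPM in control lungs (log2 fold change 0.36 ± 0.14 (SE), edgeR adjusted p = 0.141). The estimates were lower in BLM-treated lungs in fibroblasts (log2 fold change -1.43 ± 0.52 (SE), edgeR adjusted p = 0.237) and smooth muscle cells or pericytes (log2 fold change -1.78 ± 0.56 (SE), edgeR adjusted p = 0.0993).

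Whether the difference between BLM-treated and control lungs was itself different in pooled ECs, stromal cells and macrophages was tested in 1 fit with the rat as a block, where stromal cells were fibroblasts, smooth muscle cells or pericytes, mesothelial cells and 1 class that is not described here, which gave 197 cells to this pool in BLM-treated lungs and 223 in control lungs. Of 27 tests (9 members, 3 pairs of classes), 5 passed, over a background of 2.44% of all tests (2.21% for macrophages minus ECs, 1.11% for stromal cells minus ECs and 4.0% for stromal cells minus macrophages). Vegfa differed most. It was 115, 147 and 51.6 CPM in BLM-treated lungs, against 8.57, 12.9 and 6.31 CPM in control lungs in macrophages, and 1274, 1170.2 and 1245 CPM in BLM-treated lungs, against 2465, 646 and 2612 CPM in control lungs in ECs, so that its log2 fold change in macrophages minus that in ECs was 3.74 ± 0.53 (SE; edgeR adjusted p = 0.000449). In stromal cells, Vegfa was 843, 767 and 438 CPM in BLM-treated lungs, against 518, 364 and 573 CPM in control lungs, and the log2 fold change in stromal cells minus that in macrophages was -2.95 ± 0.52 (SE; edgeR adjusted p = 0.00205). Both held without each rat. Within the classes of the macrophage pool, the log2 fold change was 3.16 in alveolar macrophages, at the low levels described above, and 0.77 in interstitial macrophages, where it did not pass (edgeR adjusted p = 0.167). The pools also differed in make-up. The macrophage pool mixes alveolar and interstitial cells, with 2282 alveolar and 1466 interstitial cells in BLM-treated lungs and 3780 alveolar and 193 interstitial cells in control lungs. The stromal pool had 1067 fibroblasts, 670 smooth muscle cells or pericytes and 679 mesothelial cells in BLM-treated lungs, and 47, 87 and 115 such cells in control lungs. A difference between pools therefore cannot be told apart from a different mix of classes.

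Nrp1 differed between ECs and both other pools. Its log2 fold change in macrophages minus that in ECs was 1.74 ± 0.33 (SE; edgeR adjusted p = 0.00792), and in stromal cells minus that in ECs 1.48 ± 0.31 (SE; edgeR adjusted p = 0.0223). The macrophage pool had 14.3, 21.6 and 14.9 CPM in BLM-treated lungs, against 6.43, 7.12 and 4.66 CPM in control lungs. Its classes did not follow that direction. In interstitial macrophages Nrp1 was 49.1, 47.3 and 50.9 CPM in BLM-treated lungs, against 107, 81.5 and 31.5 CPM in control lungs, with overlap (log2 fold change -0.47 ± 0.37 (SE), edgeR adjusted p = 0.431), and in alveolar macrophages, where it was too sparse to test, 0.751, 1.47 and 2.83 CPM in BLM-treated lungs, against 2.95, 3.40 and 4.19 CPM in control lungs. The stromal pool had 249.6, 255 and 152 CPM in BLM-treated lungs, against 89.7, 119 and 96.6 CPM in control lungs. Its log2 fold changes by class were 0.35 in fibroblasts (edgeR adjusted p = 0.637), 0.35 in smooth muscle cells or pericytes (edgeR adjusted p = 0.8) and -1.85 in mesothelial cells, the call given above. The calls were lost without single rats, in 4 and 5 of 6 fits, with adjusted p up to 0.104 and 0.203. For Vegfc, the difference of stromal cells minus ECs was 2.83 ± 0.64 (SE; edgeR adjusted p = 0.0349), lost in 5 of 6 such fits with adjusted p up to 0.198. The stromal pool had 25.9, 27.5 and 34.3 CPM in BLM-treated lungs, against 0, 11.9 and 26.4 CPM in control lungs, with overlap, while within fibroblasts the log2 fold change was -0.70, uncalled and of the same sign as in ECs. Kdr passed in none of its 3 pairs (unadjusted p from 0.236 to 0.425), so that its lower level in ECs was not shown to be particular to them.

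The genes around the VEGF pathway were followed in ECs by lists of hypoxia regulators and targets, genes induced by VEGF, parts of VEGF receptor signalling, and the semaphorins and plexins that share the neuropilins. Of 18 hypoxia genes 13 could be tested in ECs, and 8 were higher and 1 was lower, with a median log2 fold change of 1.25 against 0.01 over all genes tested. In that fit 4.01% of genes were higher and 2.72% lower. In capillary ECs the counts were again 8 higher and 1 lower of 13, with a median of 1.64 against 0.07 (6.74% and 4.42% of genes). As described for Kdr, 123 of 155 control capillary cells lay in a subcluster with 4 cells from BLM-treated lungs, and the AT2 and lymphatic marker sums differed between the groups. The part of these in the results of the pathway lists was not tested. Bnip3, a mitophagy receptor, was 355, 479 and 522 CPM in BLM-treated lungs, against 37.9, 29.4 and 67.4 CPM in control lungs in ECs (log2 fold change 3.10 ± 0.33 (SE), edgeR adjusted p = 2.07e-05). Slc2a1, the glucose transporter GLUT1, was 63.4, 110.0 and 96.4 CPM in BLM-treated lungs, against 0, 14.7 and 25.3 CPM in control lungs (log2 fold change 2.20 ± 0.50 (SE), edgeR adjusted p = 0.0127). In capillary ECs the BLM rats had 31, 70 and 71 Slc2a1 UMIs and the control rats none, which makes it at least 6.08-fold higher against a floor of 3 UMIs over the control group.

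The glycolytic enzyme Pgk1 (log2 fold change 2.04 ± 0.44 (SE), edgeR adjusted p = 0.00879), the hypoxia target Ankrd37 (log2 fold change 2.44 ± 0.54 (SE), edgeR adjusted p = 0.0103) and Ndrg1, a stress-induced gene (log2 fold change 1.37 ± 0.24 (SE), edgeR adjusted p = 0.00224), were higher as well. P4ha1, a collagen prolyl hydroxylase subunit, was higher in capillary ECs (log2 fold change 1.74 ± 0.34 (SE), edgeR adjusted p = 0.000141). The oxygen-regulated subunits of the hypoxia-inducible factors (HIF) moved in opposite directions. Hif1a was 109, 195 and 228 CPM in BLM-treated lungs, against 75.8, 103 and 63.2 CPM in control lungs (log2 fold change 1.36 ± 0.38 (SE), edgeR adjusted p = 0.039), whereas Epas1, the endothelial HIF subunit, was 4387, 4235 and 4780.2 CPM in BLM-treated lungs, against 8911, 8264 and 7853 CPM in control lungs (log2 fold change -0.75 ± 0.19 (SE), edgeR adjusted p = 0.0221) and was the 1 lower member. Hif1a, Epas1 and Plvap are named beyond the 10 with the largest changes, after their values were seen. In venous ECs only Ndrg1 of 7 genes tested passed (log2 fold change 2.17 ± 0.47 (SE), edgeR adjusted p = 0.00422; 1.82% of genes were higher), and in arterial ECs none of 5 passed, of which Pgk1 alone had an unadjusted p under 0.05 in edgeR (0.0034), where 1.05% of genes were higher and 1.05% lower.

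Genes that VEGF is known to induce in endothelium gave mixed directions. Of 14 listed 12 could be tested, and 1 was higher and 2 were lower in ECs and 1 was higher and 4 were lower in capillary ECs, with medians of 0.0044 in ECs and -0.16 in capillary ECs against 0.01 and 0.07 over all genes. The shares over all genes were 4.01% higher and 2.72% lower in ECs and 6.74% and 4.42% in capillary ECs. The lower ones in ECs were Apln, the apelin peptide of tip cells and aerocytes, at 19.6, 47.7 and 132 CPM in BLM-treated lungs, against 152, 323 and 514 CPM in control lungs (log2 fold change -2.43 ± 0.47 (SE), edgeR adjusted p = 0.00445), and Plvap, the diaphragm protein of fenestrae, at 750.0, 795 and 662 CPM in BLM-treated lungs, against 2237, 1849 and 2161 CPM in control lungs (log2 fold change -1.36 ± 0.20 (SE), edgeR adjusted p = 0.000496). The higher one was the nuclear receptor Nr4a2 (log2 fold change 1.63 ± 0.32 (SE), edgeR adjusted p = 0.00415). Apln was among the leading genes of subcluster 7. Of 23 signalling parts tested in ECs, 1 was higher and 1 was lower, shares near those over all genes. The focal adhesion protein Pxn was higher (log2 fold change 1.48 ± 0.36 (SE), edgeR adjusted p = 0.0171) and the kinase Src was lower (log2 fold change -2.16 ± 0.63 (SE), edgeR adjusted p = 0.0488, with 7, 11 and 6 UMIs in BLM rats and 1, 6 and 6 in control rats), with a median of -0.19. Among 6 semaphorins and plexins tested, Sema3g, an EC-derived neuropilin ligand, was lower (log2 fold change -1.71 ± 0.41 (SE), edgeR adjusted p = 0.0181), and the median was -0.53. Pgf, a further Flt1 ligand, was measured but too sparse in ECs to test, and was seen mainly in smooth muscle cells or pericytes and in mesothelial cells.

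The genes whose mean level over the 23 classes was most like that of a member are given as a description, since the classes share libraries and depth. For Flt1 they were Ripply3, Pcdh17 and Lrrc3b (Pearson's r of log2 levels 0.912 to 0.922), and for Flt4 Apba2, Klhl4 and Meox1 (0.948 to 0.963). For Vegfd they were Thbs4, Meox2 and Cxcl14 (0.95 to 0.955), and for Vegfc Vcam1, Fbln2 and Avpr1a (0.803 to 0.858). The pattern of Kdr was most like that of Procr, Raph1 and Wscd1 (0.796 to 0.827), and that of Vegfb like LOC689959, Apip and Klhl26 (0.770 to 0.823). Vegfa came closest to Smurf2, Akr1c14 and Slc37a3 (0.752 to 0.794), Nrp1 to Smurf2, Maob and Atf7 (0.684 to 0.724), and Nrp2 to Me3, Fras1 and Fgf16 (0.745 to 0.784).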

How the data were processed

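Lungs of 3 BLM-treated and 3 control rats were profiled by single-cell RNA-seq on the BD Rhapsody system. The authors deposited a table of raw UMI counts per cell and gene. The build given in the submitters' processing notes is mm9, a mouse build, and the aligner is not given in the sources used here. The header of the table is shifted by 1 field, which was corrected. Cell names ending in F or N were read as BLM and control because the numbers of cells per group stated by the study equal their sums. The replicate number rests on the names alone. Columns of other samples numbered 0. Libraries shared 314 of 25232 distinct barcode labels, and all cells were kept.

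Cells were clustered with scanpy 1.11.5 (2000 variable genes without the members, 30 principal components, 15 neighbours, resolution 1.0). The values of 1 class are not reported here, although it is counted among the classes and tests and is in the stromal pool. Names came from marker lists, and cluster labels and the rule for capillary cells were set after the clusters were seen. The doublet caller marked 99 cells (0.3875%) and is taken not to have worked. Counts were summed per rat and class (at least 10 cells) or EC kind (at least 5 cells), with at least 2 rats per group (1 where a rat was left out of a group of 2, which is then assumed to vary like the other group), and tested with edgeR 4.0.16 (R 4.3.3; quasi-likelihood F-test, TMM scaling, Benjamini-Hochberg adjustment over all genes, threshold 0.05). Other fits used DESeq2 1.42.0, RLE scaling, all genes regardless of count, or a replicate block, and further alternatives were leaving out each rat, cells of at least 500 UMIs, doublets removed, resolutions 0.5 and 2.0, and thinning to 300 or 1000 UMIs. The scripts were tested on simulated data. P-values measure the spread between these 6 samples, 1 per rat as read from their titles. Intervals cover counting error only.

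All 9 members were measured in every class, and the text gives only part of these values. From the pathway lists, genes past the threshold are named, at most 10 per comparison by size of change, and the 3 genes most like each member over classes (log2 of mean CPM plus 10, mean of at least 20 CPM in a class). The members and lists were chosen with earlier results of these data known.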

Additional observations from a re-analysis of the deposited data

Results flagged for a closer look

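In 5 cases the difference of a gene between BLM-treated and control lungs was not the same in 2 pooled cell classes by a test of the difference itself (edgeR, 27 tests, rat as a block). For Vegfa, the log2 fold change in macrophages minus that in ECs was 3.74, and that in stromal cells minus that in macrophages was -2.95. For Nrp1, the log2 fold change in macrophages minus that in ECs was 1.74, and that in stromal cells minus that in ECs was 1.48. For Vegfc, the log2 fold change in stromal cells minus that in ECs was 2.83. The calls of Vegfa held without each rat, and those of Nrp1 and Vegfc were lost in 4, 5 and 5 of 6 such fits. The pools differed in their mix of classes, and this cannot be told apart from a change within cells: the log2 fold change of Nrp1 was -0.47 in interstitial macrophages and -1.85 in mesothelial cells, and that of Vegfc was -0.70 in fibroblasts. The Vegfa UMIs of alveolar macrophages, whose source was not tested, are not read as expression by these cells. Groups of 3 rats are too small for a search for single samples far from the others.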

How the results depend on the processing

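Calls of Vegfa in alveolar macrophages, Kdr in capillary ECs and Vegfd in the whole lung held in each fit run. Without the filter on low counts, more members entered the tests, and 5 tests of a member in a class were higher, against 2 of 47 with it. These counts are over different numbers of tests. With a replicate block 2 were lower, against 4, the lost ones being Vegfa in neutrophils (edgeR adjusted p = 0.096) and Nrp1 in mesothelial cells (0.0643). Same-numbered rats did not deviate together (correlations from -0.14 to 0.10), and the numbers were used as names only. With 3 rats per group, this cannot tell whether same-numbered rats were handled together. Leaving out 1 rat at a time gave 1 to 2 higher and 0 to 4 lower tests in classes (0 without control replicate 3), 2 to 4 higher members in the whole lung, 1 to 3 lower in EC kinds and 2 to 7 differences between broad classes. Leaving out 1 rat also turned the sign of 8 uncalled log2 fold changes, with ranges of -0.65 to 0.063 for Flt1 and -0.95 to 0.26 for Vegfa in capillary ECs, -0.86 to 0.12 for Vegfa in ECs, -1.26 to 0.15 for Vegfa, -1.20 to 0.31 for Vegfc and -1.07 to 2.55 for Vegfd in fibroblasts, and -0.059 to 0.10 for Nrp2 and -0.0095 to 0.46 for Vegfb in the whole lung. For fibroblasts, the fits without control replicate 2 or 3 had 1 control rat. In single alveolar macrophage clusters Nrp2 was -0.082 (Tchh-led) and Vegfb -0.018 (Slc39a2-led). The causes were not tested. The share of capillary ECs with a Kdr UMI was 14.99% in BLM-treated and 28.5% in control lungs after thinning to 300 UMIs, and 34.3% and 55.4% at 1000 UMIs. The share of alveolar macrophages with a Vegfa UMI at 1000 UMIs was 2.80% in BLM-treated and 0.458% in control lungs. Of the other values of single genes, 390 kept direction and side of the threshold, 45 lost the call and 6 gained it. The 27, 41 and 150 control ECs limit what could be tested in EC kinds.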
